A study of Mus musculus with 25 samples.

Results

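In mouse mammary fat pads, 6673 CpG sites had a methylation level at least 35 percentage points lower, on average, after weight loss on a Mediterranean-style restricted diet than in mice on the control diet. They were chosen from unique CpGs on chromosomes 1 to 19 with an average coverage of 10 or more reads, a value in all 3 MCR mice and a value in at least 4 of the 5 Control mice. Of the 283974 CpGs in the deposited table, 120335 met these conditions, and 82701 of them had a Control mean of 35% or more, without which a drop of that size cannot occur. The members were thus 5.55% of the eligible CpGs and 8.07% of those that could have met the rule, and the other 76028 are called the rest below. The choice rests on the MCR and Control levels themselves, so those levels at the members are given as description, with no test.

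All mice were wild-type C57BL/6N. The MCR mice (n = 3) ate a 60% high-fat diet (D12492) until obese and then lost weight on a Mediterranean-style diet with 30% calorie restriction. The LFCR mice (n = 4) were made obese likewise and then ate a low-fat diet with 30% calorie restriction. The ICR mice (n = 5) were switched from the same high-fat diet to intermittent calorie restriction. The LFD mice (n = 4, of which 3 are used) changed to a low-fat diet without restriction, and the Obese mice (n = 4, of which 1 is used) stayed obese. The Control mice (n = 5) ate diet D12450J. Every mouse, Control included, received E0771 mouse mammary cancer cells in the 4th fat pad 25 weeks after randomization, and DNA came from the opposite, 9th fat pad at endpoint. The labels describe this tissue as normal, while the sample titles carry the word tumor and the cell line field names E0771. Ages are not given, and mice are called by the numbers in their labels.

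Methylation of cytosine in CpG dinucleotides is the main DNA modification of mammalian cells. CpG islands, dense in CpGs and often located at promoters, are mostly unmethylated, whereas gene bodies and the sparse CpGs of the open sea are mostly methylated. Within a tissue, levels between these extremes arise where cells, or the alleles within cells, differ. A fat pad holds adipocytes, ducts of luminal and basal epithelium, fibroblasts, vessels and leukocytes, and many CpGs differ in methylation between these cell types. In such bulk tissue a different mixture of cells and a different level within cells cannot be told apart. Reduced representation bisulfite sequencing reads the ends of short MspI fragments, so CpGs on the same fragment share reads and are not independent.

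Of the 25 libraries, 4 stood apart: Obese mice 27, 28 and 40 and LFD mouse 46 had mean levels of 49.9% to 50.7% at the 15676 CpGs that were under 5% in Control, against 1.00% to 1.67% in the other 21 libraries. These 4 libraries are left out below. Average coverage, given over 21 libraries, had a median of 62.4 reads at the members and 55.7 at the rest. The depth of each library is unknown. Control mouse 1 had a value at 86.8% of members, ICR mouse 102 at 92.7%, and each of the other 19 at 97.0% or more.

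The CpGs as they stand in the genome are shown for 4 windows of 250 bases upstream of a RefSeq transcription start (GRCm38.p6), chosen because each holds at least 2 members and they span a homeobox gene in a CpG island, sparse CpGs of the open sea and an imprinted retrogene. The sequences run 5′ to 3′ on the strand of the gene, in lower case, with the C and G of each member CpG in capitals. The window of Hoxa5, a homeodomain transcription factor of body patterning, is chr6:52204588-52204837, minus strand. That of Timeless, a protein of replication fork stability, is chr10:128237816-128238065, plus strand. That of Lmna, which encodes the nuclear lamins A and C, is chr3:88493313-88493562, minus strand. That of Mcts2, an imprinted retrogene inside H13, is chr2:152686898-152687147, plus strand.
Hoxa5: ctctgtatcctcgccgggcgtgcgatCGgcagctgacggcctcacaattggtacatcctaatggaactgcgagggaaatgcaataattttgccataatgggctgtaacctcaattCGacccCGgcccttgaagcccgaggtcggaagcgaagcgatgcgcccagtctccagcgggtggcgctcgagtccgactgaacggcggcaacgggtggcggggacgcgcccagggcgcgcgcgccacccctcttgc
Timeless: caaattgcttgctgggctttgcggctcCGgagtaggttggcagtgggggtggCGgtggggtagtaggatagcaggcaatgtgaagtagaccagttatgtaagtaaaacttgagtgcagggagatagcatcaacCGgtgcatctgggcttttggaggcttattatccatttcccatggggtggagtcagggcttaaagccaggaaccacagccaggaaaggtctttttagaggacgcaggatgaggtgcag
Lmna: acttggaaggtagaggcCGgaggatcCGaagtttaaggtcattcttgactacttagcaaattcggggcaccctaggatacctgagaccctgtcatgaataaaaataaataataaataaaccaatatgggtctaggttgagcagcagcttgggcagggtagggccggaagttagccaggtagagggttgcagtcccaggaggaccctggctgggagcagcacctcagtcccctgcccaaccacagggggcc
Mcts2: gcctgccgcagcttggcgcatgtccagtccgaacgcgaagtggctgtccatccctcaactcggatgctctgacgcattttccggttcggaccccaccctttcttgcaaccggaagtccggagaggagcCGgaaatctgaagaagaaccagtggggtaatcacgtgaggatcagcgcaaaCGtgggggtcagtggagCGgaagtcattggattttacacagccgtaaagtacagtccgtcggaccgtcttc

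The 3 members before Hoxa5, of 9 eligible CpGs and 28 CG dinucleotides in the window, averaged 21.9, 14.1 and 22.9% in MCR mice, 31.3, 19.8, 46.2 and 54.2% in LFCR mice, 46.8, 34.9, 48.1, 58.6 and 56.8% in ICR mice, 22.3, 55.0 and 35.9% in LFD mice, 56.4% in Obese mouse 22 and 63.5, 67.5, 57.3, 46.9 and 61.9% in Control mice; here and below the mice are in the order MCR 85, 95 and 96, LFCR 63, 67, 69 and 72, ICR 102, 103, 105, 106 and 112, LFD 42, 47 and 48, and Control 1, 2, 5, 10 and 13. All 3 are annotated in the table to the bodies of Hoxa3, Hoxaas3 and Gm28308 and to an island, those at Timeless and Lmna to the bodies of these genes and the open sea, and those at Mcts2 to H13 and an island. The 3 members in the Timeless window were the only eligible CpGs there and averaged 11.4, 12.6 and 10.3% in MCR mice, 13.6, 12.1, 35.9 and 50.2% in LFCR mice, 48.5, 27.8, 51.8, 40.3 and 58.9% in ICR mice, 13.5, 51.2 and 39.6% in LFD mice, 54.2% in Obese mouse 22 and 44.5, 70.9, 53.0, 42.1 and 56.2% in Control mice. LFCR mice 63 and 67 and LFD mouse 42 lay close to the MCR mice at this window, and the other mice of those diets lay well above them.

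The 2 members in the Lmna window, of 4 eligible CpGs, averaged 2.43, 4.94 and 9.30% in MCR mice, 5.76, 6.44, 27.2 and 37.0% in LFCR mice, 24.4, 16.1, 28.6, 43.8 and 56.5% in ICR mice, 12.2, 34 and 38.2% in LFD mice, 40.8% in Obese mouse 22 and 55.7, 66.9, 58.1, 52.5 and 53.7% in Control mice. The 3 members before Mcts2, of 14 eligible CpGs, averaged 39.0, 35.4 and 40.4% in MCR mice, 23.2, 28.7, 55.2 and 63.9% in LFCR mice, 42.4, 51.7, 55.2, 62.5 and 68.7% in ICR mice, 62.0, 62.4 and 46.7% in LFD mice, 73.1% in Obese mouse 22 and 75.4, 83.6, 78.2, 77.8 and 66.3% in Control mice. At Mcts2 the lowest mice were LFCR 63 and 67, below all MCR mice, while LFD mouse 42 was level with LFD mouse 47. Of 31396 RefSeq windows of this kind, 261 held a CpG that could have met the rule, and 37 of these, for 35 gene symbols, held a member. All 66 member positions in them read CG in the reference. The MspI site CCGG, searched as these letters, which read the same on both strands, occurs in each of the 4 windows and in 47.8% of all 31396. A match describes the letters only.

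Across all members, the mean level per mouse was 23.4, 21.4 and 24.3% in MCR mice, 24.3, 26.0, 46.8 and 55.8% in LFCR mice, 47.7, 39.0, 50.8, 52.0 and 57.6% in ICR mice, 31.0, 55.7 and 47.6% in LFD mice, 56.6% in Obese mouse 22 and 67.7, 74.7, 62.2, 56.4 and 65.2% in Control mice. LFCR mice 63 and 67 lay close to the MCR mice, and LFD mouse 42 was next, whereas LFCR mice 69 and 72 lay among the ICR mice. Each of LFCR and LFD thus held both low and high mice. The mean ± SD over mice was 23.0 ± 1.51% in MCR (n = 3), 38.2 ± 15.6% in LFCR (n = 4), 49.4 ± 6.82% in ICR (n = 5), 44.8 ± 12.5% in LFD (n = 3) and 65.2 ± 6.78% in Control (n = 5). The ranges of LFCR, ICR and LFD mice overlapped one another, and ICR mouse 112, at 57.6%, was above Control mouse 10.

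**Figure D1:**
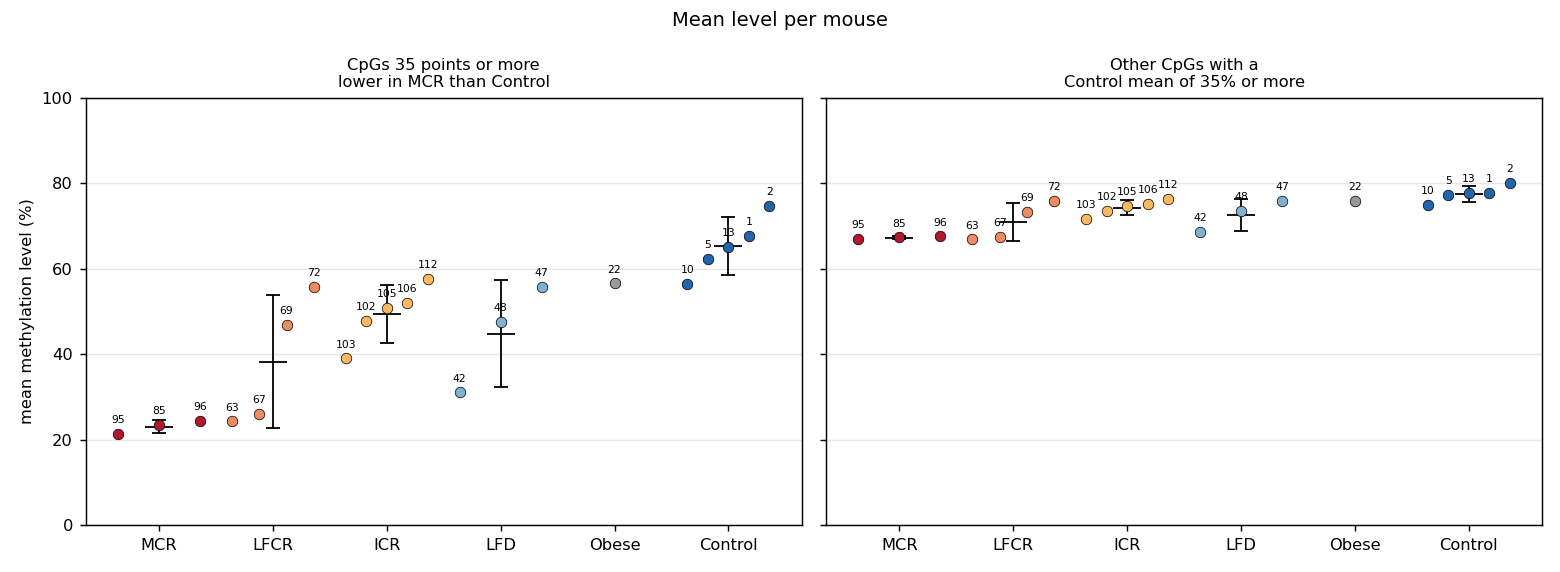
Mean methylation level (%) per mouse over the 6673 members (left) and over the 76028 other CpGs with a Control mean of 35% or more (right), with the group mean and SD as bars and mouse numbers beside the points. At the members the 12 LFCR, ICR and LFD mice span 33.3 points, and at the rest 9.40 points.

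At the rest of the CpGs the mice differed over a narrower range. The mean there was 67.3 ± 0.281% in MCR, 70.9 ± 4.46% in LFCR, 74.3 ± 1.71% in ICR, 72.7 ± 3.74% in LFD and 77.6 ± 1.83% in Control mice. Over the 12 LFCR, ICR and LFD mice, which did not choose the members, the member mean spanned 33.3 points and the mean over the rest 9.40 points. Of these 12 mice, 10 had the same rank by both means. The median SD over the 12 mice was 13.7 points at a member and 7.28 points at a CpG of the rest. A Control mean over 80% was found at 9.35% of members and 57.6% of the rest, given as description since Control chose the members.

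Within each mouse, the levels were spread widely over the members. The share of members under 20% was 44.3, 48.4 and 41.0% in MCR mice, 43.9, 39.5, 2.17 and 0.240% in LFCR mice, 2.60, 9.29, 0.870, 0.615 and 0.135% in ICR mice, 29.5, 0.439 and 1.59% in LFD mice and 0.330% in Obese mouse 22, and it was at most 0.541% in any Control mouse. The share over 60% was at most 0.659% in MCR mice and 39.2% to 89.0% in Control mice, and in LFCR mice it was 1.58, 2.33, 18.4 and 38.5%.

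**Figure D2:**
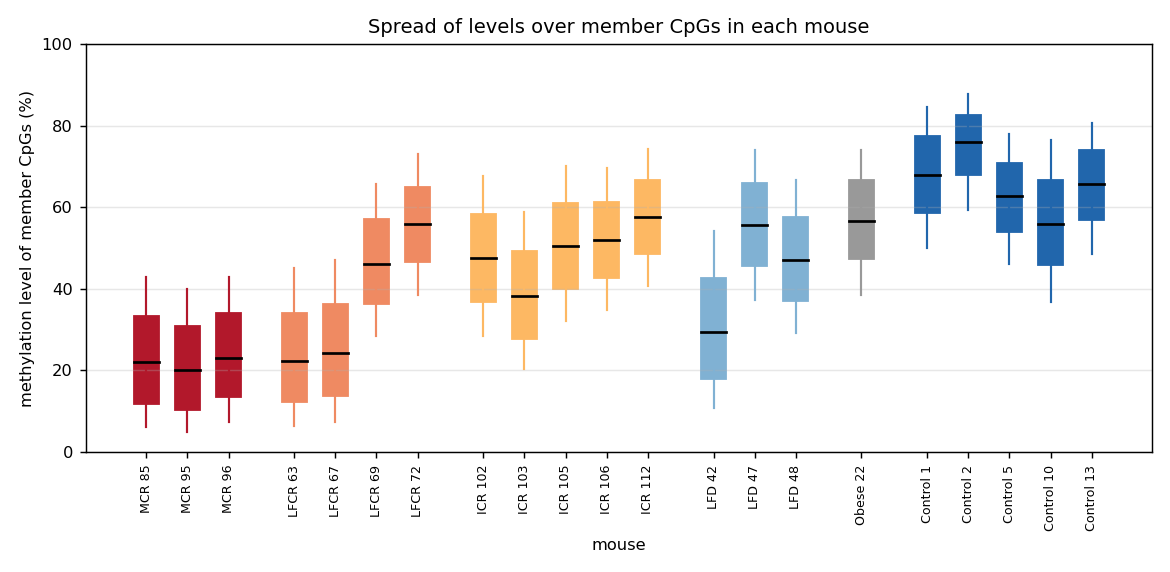
Methylation level (%) of member CpGs in each of the 21 mice, as the median (black line), the 25th to 75th percentiles (box) and the 10th to 90th percentiles (line). The medians of LFCR mice 63 and 67 are 22.4% and 24.2%, against 20% to 23.1% in the MCR mice.

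Set beside Control, which also chose the members, every diet had lower levels at nearly every member. The LFCR mean was below the Control mean at 99.97% of members, the ICR mean at 99.7%, the LFD mean at 99.9% and Obese mouse 22 at 85.0%. At the rest these shares were 81.8, 73.7, 77.1 and 57.7% in the same order. The median differences from Control were -27 points in LFCR, -15.7 in ICR, -20.6 in LFD and -8.68 in Obese mouse 22, and at the rest they were -6.29, -3.21, -4.76 and -1.31 points in the same order. A difference of 35 points or more, the size that defines the members in MCR, was met by LFCR at 645 members (9.67%), by LFD at 103 (1.54%), by Obese mouse 22 at 20 and by ICR at 6. At the rest, where MCR itself fell short of that size, LFCR met it at 23 CpGs (0.0303%) and LFD at 19 (0.0250%). Obese mouse 22 met it there at 170 (0.224%) and ICR at 1. All these differences share the Control mice with the rule and with each other, so none is independent of the choice, and no test is given.

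The differences that the choice leaves free lie between the other diets. They are LFCR against LFD, which adds calorie restriction to a low-fat diet, and LFCR against ICR, which sets continuous against intermittent restriction. A further one is ICR against LFD. Each was fitted at all 118409 CpGs with enough values, of which 6580 were members. The SE of each pools the spread of all 21 libraries, so the MCR and Control mice that chose the members enter it. SDs over mice of the member mean were 15.6 points in LFCR and 12.5 in LFD, above 6.82 in ICR, 6.78 in Control and 1.51 in MCR. The p-values by limma thus assume an equal spread that the groups did not have. No member passed an adjusted p of 0.05 by limma in LFCR against LFD, as at 0% of all CpGs tested. At an unadjusted p under 0.05 there were 210 members (3.19%), 207 of them lower in LFCR, beside 5.3% of all CpGs tested. In LFCR against ICR none passed, again with 0% of all tested, and 1070 members (16.3%) had an unadjusted p under 0.05, 1069 of them lower in LFCR, beside 8.06% of all. In ICR against LFD none passed, with 0% of all tested, and 131 members (1.99%) had such a p, 126 of them higher in ICR, beside 4.52% of all. The smallest adjusted p among members was 0.905, 0.611 and 0.881 in these 3 comparisons by limma.

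Without a call, the signs at the members still ran mostly one way. The median difference was -6.47 points at members and -1.19 at all CpGs tested in LFCR against LFD, -11.4 and -2.27 in LFCR against ICR, and 4.85 and 0.696 in ICR against LFD. LFCR was below LFD at 86.5% of members and 62.2% of all CpGs tested, and below ICR at 97.9% and 70.7%. ICR was above LFD at 80.2% of members and 58.5% of all. Single mice moved the medians at the members by over 1.5 times. Without LFCR mouse 63 the LFCR against LFD median was -1.83 points, without LFCR mouse 67 -2.39, without LFD mouse 47 -0.762, without LFCR mouse 72 -12.4 and without LFD mouse 42 -13.4. The LFCR against ICR median was -6.69 without LFCR mouse 63, -7.35 without mouse 67 and -17.3 without mouse 72. The ICR against LFD median turned to -1.98 points without LFD mouse 42, and it was 7.55 without ICR mouse 103, 2.78 without ICR mouse 112 and 10.5 without LFD mouse 47. The shares with an unadjusted p under 0.05 moved as well, at the members and over all CpGs tested. In LFCR against LFD they were 1.08% of members and 3.75% of all without LFCR mouse 63 or 67, 7.09% and 6.76% without mouse 69, and 19% and 10.2% without mouse 72. Leaving out LFD mouse 42 gave 15.3% of members and 8.01% of all, mouse 47 0.872% and 4.23%, and mouse 48 1.72% and 5.07%. The member share, below that of all CpGs with every mouse in, was thus above it without LFCR mouse 69 or 72 or LFD mouse 42. In LFCR against ICR they were 2.93% of members and 3.74% of all without LFCR mouse 63, 3.18% and 3.78% without mouse 67, 27.1% and 10.9% without mouse 69, and 56.8% and 18.4% without mouse 72. Leaving out ICR mouse 103 gave 29.1% and 11.2%, mouse 106 10.2% and 6.47%, and mouse 112 6.92% and 5.54%. Here the member share was above that of all CpGs with every mouse in and below it without LFCR mouse 63 or 67. In ICR against LFD they were 3.18% of members and 4.97% of all without LFCR mouse 72, 4.50% and 5.52% without ICR mouse 103, 0.867% and 3.64% without ICR mouse 112, 0.667% and 3.05% without LFD mouse 42, and 7.37% and 6.96% without LFD mouse 47, where alone the member share was the larger. No member was called in any of these fits.

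**Figure D3:**
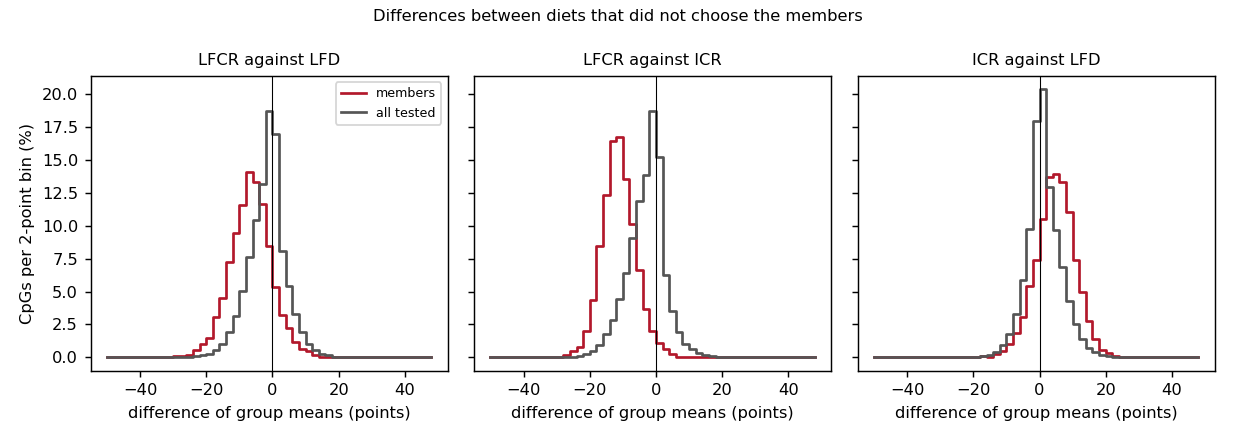
Percent of CpGs per 2-point bin of the difference between group means (percentage points), for the 6580 members tested (red) and all 118409 CpGs tested (grey). The members' medians lie at -6.47, -11.4 and 4.85 points, against -1.19, -2.27 and 0.696 for all CpGs.

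The members with the smallest p in LFCR against LFD were at Gng7 (a G protein gamma subunit), Kdm6b (a histone H3K27 demethylase), Caskin2, Dok3 (an adaptor of B cells and macrophages) and Crtc3 (a CREB coactivator). The Gng7 CpG was at 27.9, 27.9, 47.8 and 48.4% in LFCR mice and 61.2, 66.7 and 67.3% in LFD mice, a difference of -27.1 points (SE 7.49, unadjusted p = 0.00221, adjusted p = 0.905), and the 2 groups did not overlap. The 3′UTR CpG of Kdm6b was at 39.1, 34.1, 63.2 and 59.6% in LFCR mice and 61.3, 86.4 and 66.3% in LFD mice, a difference of -22.4 points (SE 6.63, unadjusted p = 0.00371, adjusted p = 0.907), with LFCR mouse 69 above LFD mouse 42. Without LFD mouse 47 this difference was -14.8 points. The 3′UTR CpG of Crtc3 was at 4.17, 6.76, 41.6 and 32.6% in LFCR mice and 43.2, 53.3 and 47.6% in LFD mice, a difference of -26.8 points (SE 8.26, unadjusted p = 0.00491, adjusted p = 0.917). LFCR and LFD mice did not overlap at Crtc3 either. None of the 5 passed the adjusted threshold by limma.

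In LFCR against ICR the smallest p values belonged to CpGs at 1700092K14Rik, Col13a1 (a transmembrane collagen), Phldb1, Tnk2 with Tnk2os (Tnk2 is a tyrosine kinase) and Mxra7. The Col13a1 CpG was at 13.6, 15.0, 30.0 and 45.2% in LFCR mice and 55.6, 40.4, 44.2, 51.3 and 65.3% in ICR mice, a difference of -25.4 points (SE 5.90, unadjusted p = 0.000508, adjusted p = 0.611). LFCR mouse 72 overlapped the ICR mice there. The 5′UTR CpG of Tnk2 was at 17.3, 24.6, 43.8 and 51.3% in LFCR mice and 53.3, 53.3, 53.7, 64.9 and 70.3% in ICR mice, a difference of -24.9 points (SE 6.03, unadjusted p = 0.00074, adjusted p = 0.611), and no LFCR mouse reached an ICR mouse. All 5 of these members had the same adjusted p of 0.611 by limma.

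In ICR against LFD they were at Pcgf2 (a Polycomb group protein), Nacad, Otop3 (a proton channel), Arap1 (a GTPase-activating protein) and Itga2b (the platelet integrin alpha chain). The Pcgf2 CpG, in a 5′UTR, was at 40.5, 37.9, 32.1, 48.5 and 50% in ICR mice and 18, 17.6 and 24.3% in LFD mice, a difference of 21.8 points (SE 6.06, unadjusted p = 0.00227, adjusted p = 0.881). The Arap1 CpG was at 78.3, 70.8, 67.4, 81.0 and 76.6% in ICR mice and 56.1, 65.0 and 59.4% in LFD mice, a difference of 14.7 points (SE 4.59, unadjusted p = 0.00543, adjusted p = 0.957). Both had ICR mice wholly above LFD mice, and neither passed the adjusted threshold by limma.

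By annotation, most members lay in gene bodies, as did most CpGs that could have met the rule: 79.6% of members and 81.8% of those 82701 candidates. The 1st exon held 10.1% of members and 8.88% of candidates, the 3′UTR 6.64% and 6.29%, and the 5′UTR 2.67% and 1.57%. Of intergenic candidates 48 of 940 were members (5.11%). In the classes just upstream of a start the counts were 10 of 173 for TSS1500 (5.78%) and 6 of 55 for TSS200 (10.9%), beside 8.07% over all candidates. By relation to CpG islands the difference was wider. Islands held 17.3% of members and 8.42% of candidates, shores (the flanks of islands) 15.9% and 13.6%, shelves beyond them 9.86% and 8.97%, and the open sea 56.9% and 69.0%. Put the other way, 16.6% of island candidates were members, against 9.46% in shores, 8.87% in shelves and 6.65% in the open sea. These are descriptions, since CpGs of an island share fragments and the rule fixed which CpGs count. The classes also differed in level: the Control mean at the rest was 68.0% in islands and 79.8% in the open sea. Whether this bears on the island share was not tested.

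**Figure D4:**
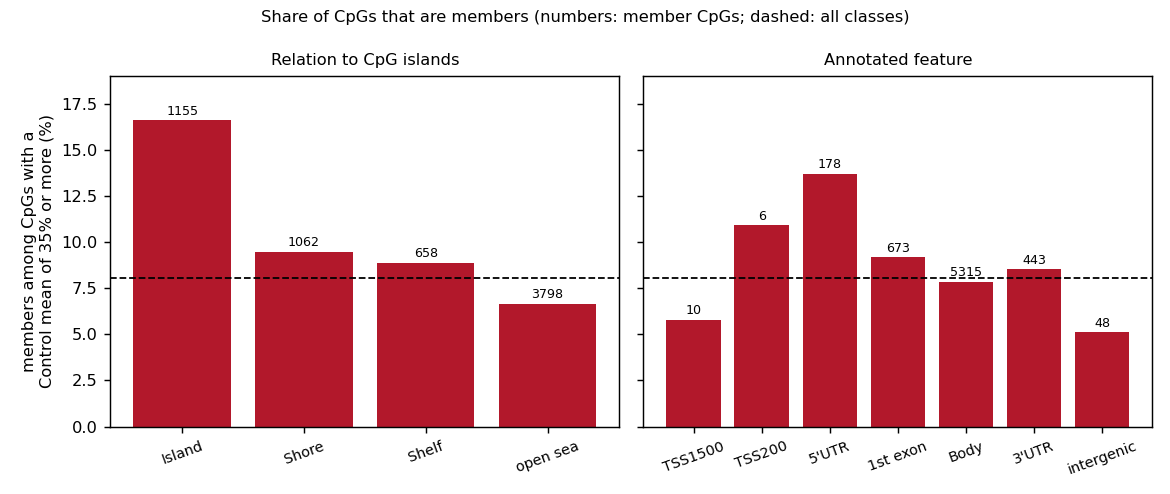
Percent of CpGs with a Control mean of 35% or more that are members, by relation to CpG islands (left) and by annotated feature (right), with the number of members above each bar and the share over all classes (8.07%) as a dashed line. Islands stand at 16.6% and the open sea at 6.65%.

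The island share was highest in the 5′UTR, where 59 of 183 island candidates (32.2%) were members, followed by islands in the 3′UTR (95 of 487, 19.5%), in gene bodies (766 of 4282, 17.9%) and in 1st exons (235 of 1981, 11.9%). Island members also had the lowest levels. They averaged 17.2 ± 1.54% in MCR, 31.5 ± 15.9% in LFCR, 43.4 ± 7.59% in ICR, 38.2 ± 12.6% in LFD and 60.4 ± 7.80% in Control mice (SD over mice). Open sea members averaged 25.3 ± 1.72% in MCR, 40.7 ± 15.5% in LFCR, 51.8 ± 6.61% in ICR, 47.5 ± 12.5% in LFD and 67.3 ± 6.28% in Control mice. The mean was highest in ICR, then LFD, then LFCR in each of the 11 classes, but without LFD mouse 42 ICR was below LFD in 9 of them. In TSS200 and TSS1500, with the fewest members, LFCR was above LFD without LFCR mouse 63 or 67 or LFD mouse 47, and in TSS200 also without LFD mouse 48. By chromosome, the share of candidates that were members ran from 5.80% on chromosome 16 to 11.4% on chromosome 6, which carries the Hoxa genes.

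To describe their places along the genome, members were joined where neighbours lay 500 bp or less apart. They formed 2584 clusters, of which 1329 were single CpGs. The 724 clusters of 3 or more held 4282 members (64.2%), and the 80 clusters of 10 or more held 1448 (21.7%). Candidates were not joined likewise, so these shares have no background. CpGs read on short MspI fragments lie close together whether members or not. The 12 largest lay at Agap2, Ccm2l, Rnf220, 2700081O15Rik, Rasal3, Snx20, the Hoxa3 to Hoxa5 interval, Carmil2, Mfsd12 with 4930404N11Rik, H13, Mex3a and a stretch with no gene name in the table, which RefSeq annotates to Shisa8. In 2 of them, at Rnf220 and Rasal3, every eligible CpG within the cluster was a member, and at Mex3a the share was lowest, 30 of 48.

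Agap2 encodes a GTPase-activating protein that enhances PI3K activity. Its cluster of 58 members, the largest, spans chr10:127079354-127080701 (mm10) in the 1st exon, in an island and its shore, with 68 eligible CpGs. It averaged 9.21, 10.8 and 14.4% in MCR mice, 10.4, 12.3, 35.9 and 53.1% in LFCR mice, 37.3, 29.6, 40.4, 48.2 and 50.2% in ICR mice, 18.8, 48.4 and 40.4% in LFD mice, 53.7% in Obese mouse 22 and 69.0, 76.0, 55.8, 53.1 and 62.7% in Control mice. The MCR range took in LFCR mice 63 and 67, with LFD mouse 42 just above it, while LFCR mouse 72 was level with the lowest Control mouse. With members elsewhere in the gene, 109 of its 134 candidates were members.

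Rasal3 encodes a Ras GTPase-activating protein of blood cells, Snx20 a sorting nexin that binds the leukocyte adhesion ligand PSGL-1, and Carmil2 an actin regulator in T cell costimulation. The 46 Rasal3 members (chr17:32396423-32396806, gene body, island) averaged 9.06, 12.2 and 11.9% in MCR mice, 9.21, 11.0, 31.4 and 46.4% in LFCR mice, 40.0, 26.0, 36.4, 40.5 and 47.3% in ICR mice, 16.4, 46.4 and 30.9% in LFD mice, 42.4% in Obese mouse 22 and 54.0, 69.0, 56.6, 43.8 and 58.7% in Control mice. The 43 Snx20 members (chr8:88627518-88627840, gene body, island) averaged 5.20, 7.26 and 11.6% in MCR mice, 6.69, 4.17, 26.7 and 40.6% in LFCR mice, 36.2, 16.1, 33.8, 35.3 and 47.2% in ICR mice, 9.79, 39.4 and 26.2% in LFD mice, 43.0% in Obese mouse 22 and 52.7, 62.1, 48.9, 40.8 and 49.8% in Control mice. At Snx20, LFCR mouse 67 was below every MCR mouse. The 39 Carmil2 members (chr8:105693674-105694723, gene body, island and shore) averaged 9.67, 7.57 and 12.6% in MCR mice, 6.28, 8.52, 31.0 and 49.1% in LFCR mice, 33.9, 26.3, 35.2, 43.3 and 47.2% in ICR mice, 18.6, 53.5 and 38.8% in LFD mice, 45.4% in Obese mouse 22 and 67.6, 71.5, 50.3, 43.4 and 51.8% in Control mice. LFCR mice 63 and 67 were below the middle MCR mouse there, and LFD mouse 47, LFCR mouse 72, ICR mouse 112 and Obese mouse 22 were within the Control range.

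The Hoxa cluster of 40 members (chr6:52203847-52204842) covers the 1st exon of Hoxa5 and reaches into the window printed above. It averaged 26.9, 21.5 and 28.7% in MCR mice, 31.8, 27.7, 47.8 and 54.1% in LFCR mice, 46.2, 38.3, 51.4, 57.6 and 59.8% in ICR mice, 27.8, 55.8 and 48.7% in LFD mice, 55.6% in Obese mouse 22 and 60.1, 75.2, 60.7, 57.7 and 68.4% in Control mice. Its MCR mice were higher than at most of the other large clusters, and LFCR mouse 67 and LFD mouse 42 lay within their range. Hox genes encode homeodomain factors that specify position along the body axis, and Hoxa5 also acts in mammary epithelium.

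MCR means under 10% were also found at Rnf220, which encodes an E3 ubiquitin ligase, and H13, which encodes signal peptide peptidase. The 47 Rnf220 members (chr4:117304010-117304525, gene body, island and shore) averaged 5.92, 6.46 and 7.16% in MCR mice, 8.07, 8.16, 34 and 49.1% in LFCR mice, 40.5, 22.7, 36.1, 40.9 and 46.5% in ICR mice, 16.9, 46.4 and 33.1% in LFD mice, 50.4% in Obese mouse 22 and 59.7, 72.2, 55.5, 43.0 and 60.3% in Control mice. The 33 H13 members (chr2:152707348-152707836, 3′UTR, island and shore) averaged 8.46, 8.54 and 8.05% in MCR mice, 7.30, 2.77, 32.3 and 42.6% in LFCR mice, 24.5, 26.3, 32.0, 31.6 and 45.1% in ICR mice, 7.53, 48.5 and 30.2% in LFD mice, 50.2% in Obese mouse 22 and 61.7, 75.1, 49.9, 43.1 and 49.1% in Control mice. At H13, LFD mouse 42 and LFCR mice 63 and 67 were all below the MCR mice, and the same LFCR mice were just above them at Rnf220.

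Ccm2l, a relative of the vascular malformation gene Ccm2, was the only open sea cluster of the 12. Its 52 members (chr2:153071577-153072133, gene body) averaged 17.1, 30.6 and 22.9% in MCR mice, 25.6, 21.9, 43.0 and 54.3% in LFCR mice, 48.1, 43.2, 48.1, 48.1 and 53.8% in ICR mice, 30.6, 54.7 and 47.0% in LFD mice, 66.8% in Obese mouse 22 and 65.2, 72.1, 64.8, 53.1 and 65.4% in Control mice. Obese mouse 22 was within the Control range, and MCR mouse 95 was higher than LFCR mice 63 and 67. The Mex3a cluster, in a gene for an RNA-binding protein, averaged 13.7 ± 2.04% in MCR, 25.0 ± 17.0% in LFCR, 40.9 ± 7.89% in ICR, 34.4 ± 14.8% in LFD and 54.9 ± 8.03% in Control mice (SD). The stretch at Shisa8, a relative of AMPA receptor auxiliary subunits, averaged 27.6 ± 1.27% in MCR, 40.6 ± 18.2% in LFCR, 51.1 ± 7.29% in ICR, 50.1 ± 6.80% in LFD and 71.6 ± 4.92% in Control mice (SD), and that of Mfsd12, a lysosomal transporter gene, 23.6 ± 0.507% in MCR, 37.8 ± 16% in LFCR, 51.3 ± 7.13% in ICR, 45.4 ± 12.9% in LFD and 68.9 ± 6.04% in Control mice (SD). The 2700081O15Rik cluster averaged 15.8 ± 1.45% in MCR, 31.3 ± 15.9% in LFCR, 45.5 ± 7.49% in ICR, 38.5 ± 13.6% in LFD and 61.3 ± 10.1% in Control mice (SD). In all 12 clusters the LFCR mean was below the LFD and ICR means, with SDs over LFCR mice of 12.6 to 20.4 points. Against ICR this held without any one mouse. Against LFD it turned in 4 clusters without LFD mouse 47, with 40.4% in LFCR and 38.2% in LFD at Hoxa, 21.2% and 18.9% at H13, 24.5% and 23.6% at Rasal3, and 19.5% and 18% at Snx20, and at Hoxa also without LFCR mouse 67 (44.6% and 44.1%). The ICR mean was above the LFD mean in all 12 and, without LFD mouse 42, in 1.

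**Figure D5:**
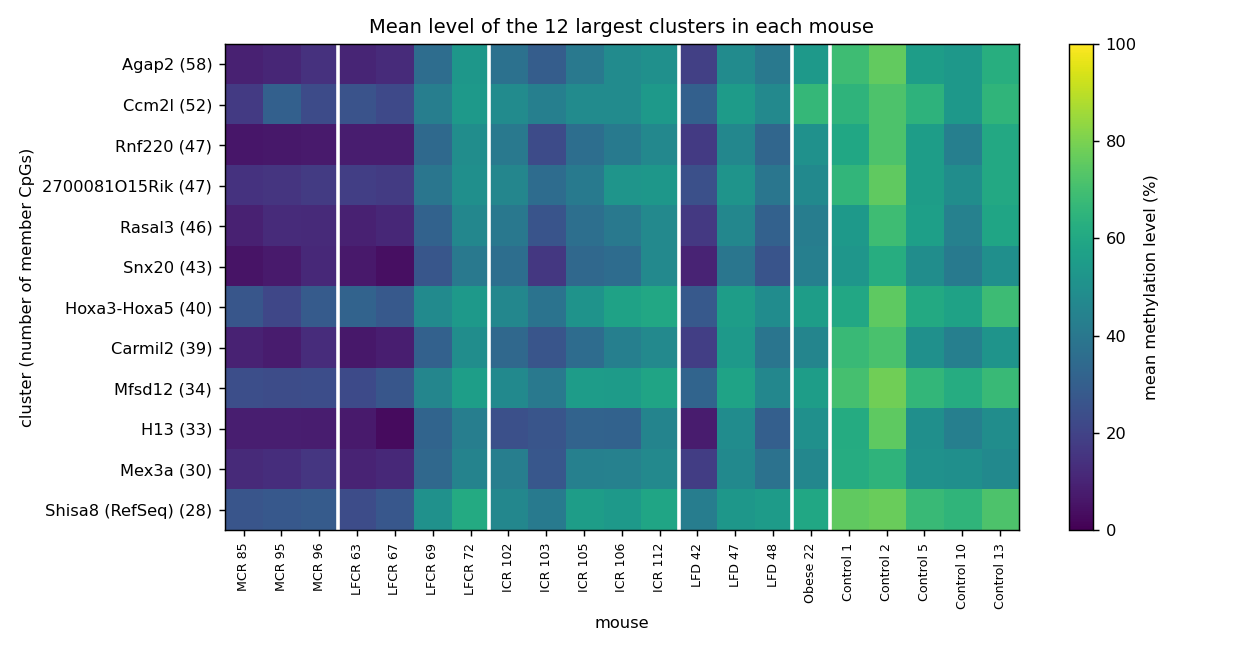
Mean methylation level (%) of the 12 largest clusters (rows, with their number of member CpGs) in each of 21 mice (columns, grouped by diet). LFCR mice 63 and 67 are at or below the highest MCR mouse in 9 and 10 of the 12 rows, and LFD mouse 42, next lowest in the Agap2 row with 18.8%, in 3.

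The same mice were low nearly everywhere. In 598 clusters of 3 or more members every LFCR, ICR and LFD mouse had every value. The lowest of these 12 mice was LFCR mouse 63 in 352 clusters, LFCR mouse 67 in 162, LFD mouse 42 in 83 and ICR mouse 102 in 1. LFCR mouse 63 was among the 3 lowest in 592, LFCR mouse 67 in 580, LFD mouse 42 in 503 and ICR mouse 103 in 90. The highest was most often ICR mouse 112 (231 clusters), LFD mouse 47 (149) or LFCR mouse 72 (129). LFCR mouse 63 was at or below the highest MCR mouse in 449 clusters, LFCR mouse 67 in 357, LFD mouse 42 in 186 and ICR mouse 103 in 17. Obese mouse 22 was at or above the lowest Control mouse in 356 and above every Control mouse in 3.

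By group, the LFCR mean was below the LFD mean in 547 of the 598 clusters and below the ICR mean in 597, and the ICR mean was below the LFD mean in 72. Without LFD mouse 47, LFCR was below LFD in 330. ICR was below LFD in 401 without LFD mouse 42, in 142 without ICR mouse 112, in 32 without ICR mouse 103 and in 22 without LFD mouse 47. Of the 598, LFCR mice were wholly below LFD mice in 1 cluster and wholly below ICR mice in 5. ICR mice were wholly above LFD mice in 3 and wholly below in 1. Clusters outside the members were not counted, so there is no share to read these counts against. These counts describe clusters that share the same mice and add no replicates to the tests above.

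Among these clusters, the lowest over the 12 mice were at Rara (retinoic acid receptor alpha), at an unnamed stretch that RefSeq places at Srf (serum response factor), at Rhbdf2 (an iRhom needed for ADAM17 maturation), at Coro7, Dnaja3 and Vasn, and at a stretch that RefSeq places at Cdc42ep1. The 3 Rara members (chr11:98951633-98951760, gene body, open sea) averaged 3.03, 1.57 and 8.82% in MCR mice, 3.46, 3.23, 18.8 and 22.7% in LFCR mice, 18.8, 12.9, 29.1, 19.1 and 42.2% in ICR mice, 1.41, 33.1 and 19.2% in LFD mice, 33.6% in Obese mouse 22 and 54.2, 57.9, 47.0, 27.6 and 39.9% in Control mice. LFD mouse 42 was the lowest of all mice there. The highest clusters were at BC034090 with Gm37622, at stretches that RefSeq places at Slc9a3r2 and Sh3pxd2a, at Nfatc2 (a transcription factor of T cell activation) and at Gramd4. The 5 Nfatc2 members (chr2:168478064-168478165, 3′UTR, open sea) averaged 46.8, 55.1 and 45.7% in MCR mice, 71.5, 49.0, 73.5 and 71.6% in LFCR mice, 68.4, 68.3, 86.3, 75.1 and 81.1% in ICR mice, 71.9, 81.8 and 77.1% in LFD mice, 78.3% in Obese mouse 22 and 91.7, 94.6, 77.0, 88.4 and 83.2% in Control mice. LFCR mouse 67 alone of its group lay in the MCR range there.

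The single members with the largest drop from Control to MCR lay at Crispld2 with Gm20388 (-68.7 points), Lgmn, Gm32352, Csnk1e, Rrbp1, Rnf220, Nek6, Runx1, Tns1 and AI480526 with Gm38102 (-63.6 points). They were picked by that drop, so its size is description only. The CpG at Crispld2 was scattered, at 51.5, 16.7 and 0% in MCR mice and 93.1, 100, 75.8, 100 and 88.1% in Control mice. At Lgmn, which encodes the lysosomal protease legumain, the body CpG was at 15.4, 14.3 and 23.5% in MCR mice, 15.1, 52.0, 56.5 and 74.0% in LFCR mice, 80, 46.2, 52.8, 52.0 and 66.7% in ICR mice, 39.5, 55.1 and 66.1% in LFD mice, 57.1% in Obese mouse 22 and 100, 67.7, 100 and 76.2% in Control mice, with no value in Control mouse 1. At Csnk1e, a casein kinase of the circadian clock, the body CpG was at 2.17, 10.5 and 12.1% in MCR mice, 1.25, 3.12, 21.9 and 53.3% in LFCR mice, 39.1, 21.3, 39.3, 45.2 and 40.0% in ICR mice, 10.7, 37.5 and 42.1% in LFD mice, 44.4% in Obese mouse 22 and 73.7, 87.5, 70.0, 62.5 and 79.2% in Control mice. LFCR mice 63 and 67 were below MCR mice 95 and 96 at Csnk1e, and only LFCR mouse 63 was in the MCR range at Lgmn. At Runx1, a transcription factor of blood cell development, the 1st exon island CpG was at 0, 0 and 15.2% in MCR mice, 6.80, 15.6, 37.5 and 44.6% in LFCR mice, 20, 33.3, 37.5 and 68.4% in ICR mice, 53.6 and 48.8% in LFD mice, 39.5% in Obese mouse 22 and 80, 54.7, 68.6 and 73.8% in Control mice, without values in ICR mouse 102, LFD mouse 42 and Control mouse 1.

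At the threshold, the members just inside lay at Fdxr, Pcolce and Nfix, each with a difference of -35.0 points (32.6, 35.4 and 41.8% in MCR, 67.6, 70.4 and 76.8% in Control). The CpGs just outside, also at -35.0 points when rounded, lay at Fzd7, in the Hoxa3 to Hoxa5 interval and at Capn5 with Omp (11.0, 36.2 and 42.9% in MCR, 46.0, 71.2 and 77.9% in Control).

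In the table's annotation 6100 members carried a gene name, for 1606 genes of the 7470 with a candidate CpG (21.5%), and 573 had none. Of these genes 145 had 10 or more members. Among the 2323 genes with at least 10 candidates, 52 had members at no less than 50% of them. These included Rasal3 (52 of 54 candidates), Gfi1 (22 of 24), Tfr2 (18 of 20), Snx20 (43 of 48), Ccm2l (52 of 60), Agap2 (109 of 134), Dlg4 (12 of 17), Rhoc (11 of 16), Hdac5 (23 of 34) and Il12rb1 (29 of 47). The Gfi1 members, in a repressor gene of blood cell development, averaged 8.87 ± 4.98% in MCR, 20.2 ± 16.7% in LFCR, 38.3 ± 12.1% in ICR, 28.5 ± 13.9% in LFD, 44.6% in Obese mouse 22 and 56.8 ± 16.3% in Control (SD over mice, also below). Those of Tfr2, a transferrin receptor gene, averaged 10.1 ± 0.358% in MCR, 21.2 ± 15.6% in LFCR, 36.4 ± 10.2% in ICR, 31.0 ± 17.2% in LFD, 42.9% in Obese mouse 22 and 53.6 ± 14.3% in Control. Those of Hdac5, a histone deacetylase gene, averaged 9.19 ± 2.49% in MCR, 21.6 ± 14.7% in LFCR, 34.8 ± 6.75% in ICR, 30.2 ± 12.4% in LFD, 47.6% in Obese mouse 22 and 53.7 ± 10.0% in Control. All 3 had the ICR mean above the LFD mean and the LFD mean above the LFCR mean, but without LFD mouse 42 ICR was below LFD at Tfr2 (36.4% and 40.5%) and Hdac5 (34.8% and 37.2%).

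Gene lists for the cell types of the pad and for pathways of interest show how the members fall. All were drawn up with earlier results of these data known, so the share of no list is independent evidence. Over all genes with a candidate CpG, 21.5% had a member. Of the leukocyte markers, 9 of 32 genes with a candidate CpG had a member (100 of 492 CpGs, 20.3%), beside 8.07% over all candidates. Runx3, a transcription factor of T and NK cells, had 54 of 108 candidates among the members, averaging 13.5 ± 2.53% in MCR, 27.5 ± 17.4% in LFCR, 39.0 ± 7.79% in ICR, 33.0 ± 11.1% in LFD, 47.2% in Obese mouse 22 and 58.3 ± 8.20% in Control. Cd37, a leukocyte tetraspanin gene, had 9 of 9, averaging 13.9 ± 7.58% in MCR, 28.6 ± 18% in LFCR, 37.7 ± 8.71% in ICR, 32.9 ± 17.4% in LFD, 42.0% in Obese mouse 22 and 60.2 ± 8.77% in Control. Runx1 had 13 of 36, Dok3 12 of 33 and Cx3cr1, a chemokine receptor gene of monocytes, 4 of 106, so the leukocyte share came mostly from a few genes. Over all 641 CpGs measured at this list, members or not, the mean per mouse was 51.7 to 51.8% in MCR, 51.4 to 58.1% in LFCR, 55.1 to 58.6% in ICR, 53.4 to 58.2% in LFD, 58.1% in Obese mouse 22 and 58.6 to 62.5% in Control mice. These means, like those over whole lists below, take in the list's members, which were chosen by their MCR and Control levels. Their MCR and Control values are thus description only. The part of leukocyte content in the levels at the members was not tested.

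Of the adipocyte genes, 8 of 20 genes with a candidate CpG had a member (67 of 602 CpGs, 11.1%). Prdm16, which drives brown and beige fat, had 44 of 345, averaging 23.9 ± 1.59% in MCR, 38.9 ± 14.1% in LFCR, 47.5 ± 8.08% in ICR, 43.3 ± 13.6% in LFD, 56.8% in Obese mouse 22 and 64.0 ± 7.50% in Control, and Cpt1b, the muscle-type carnitine palmitoyltransferase, had 16 of 28, averaging 26.7 ± 1.22% in MCR, 43.4 ± 12.9% in LFCR, 54.6 ± 6.91% in ICR, 50.4 ± 8.29% in LFD, 63.7% in Obese mouse 22 and 68.4 ± 6.33% in Control. Lipe, Pnpla2, Acacb, Gpd1 and Slc2a4, which act in lipid metabolism and glucose uptake, had 1 each. Over the 776 CpGs of the list the mean per mouse was 50.7 to 51.7% in MCR, 51 to 60.3% in LFCR, 55.7 to 60.9% in ICR, 51.9 to 60.4% in LFD, 60.9% in Obese mouse 22 and 59.5 to 64.9% in Control mice, and the part of adipocyte content was not tested.

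Of the luminal epithelial genes, 2 of 12 genes with a candidate CpG had a member (17 of 97 CpGs, 17.5%). They were Gata3, a transcription factor of luminal cells, with 9 of 22, averaging 21.9 ± 2.12% in MCR, 39.4 ± 16% in LFCR, 45.1 ± 9.90% in ICR, 42.8 ± 10.1% in LFD, 64.7% in Obese mouse 22 and 61.8 ± 7.55% in Control, and Krt7, a simple epithelial keratin, with 8 of 17. Of the basal epithelial genes, 5 of 9 genes with a candidate CpG had a member (11 of 141 CpGs, 7.80%). Of the fibroblast and matrix genes, 7 of 15 genes with a candidate CpG had a member (26 of 293 CpGs, 8.87%), and 14 of these CpGs were at Mmp14, a membrane-bound matrix metalloproteinase. Of the endothelial genes, 9 of 18 genes with a candidate CpG had a member (26 of 202 CpGs, 12.9%), with 6 at Nos3, the endothelial nitric oxide synthase, and 4 at Robo4. Of the skeletal muscle genes, 2 of 17 genes with a candidate CpG had a member (4 of 333 CpGs, 1.2%), at Tnni1 and Casq1. Over all measured CpGs of the skeletal muscle list the mean was 58.3 to 60.3% in MCR and 66.0 to 69.2% in Control mice. The CpGs of the rest were also lower in each MCR mouse (67.0 to 67.6%) than in each Control mouse (74.9 to 80.1%), so such a gap sets no list apart.

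Of the insulin, PI3K and mTOR signalling genes, 10 of 25 genes with a candidate CpG had a member (21 of 304 CpGs, 6.91%), with 5 members at Akt1, the kinase downstream of PI3K, averaging 31.7 ± 6.79% in MCR, 41.2 ± 12.5% in LFCR, 51.9 ± 11.4% in ICR, 49.9 ± 15.3% in LFD, 75.2% in Obese mouse 22 and 70.7 ± 7.30% in Control. At Akt1 Obese mouse 22 was above the Control mean. Grb10, an imprinted adaptor gene that restrains insulin signalling, had 4 of 28 and Irs2, an insulin receptor substrate, 2 of 23. Of the junction and guidance genes, 17 of 24 genes with a candidate CpG had a member (115 of 779 CpGs, 14.8%). Ephb2, an ephrin receptor gene, had 22 of 191, Pkp3, a desmosomal plakophilin, 15 of 40, averaging 16.9 ± 4.47% in MCR, 33.3 ± 16.1% in LFCR, 44.1 ± 7.46% in ICR, 38.4 ± 10.4% in LFD, 55.2% in Obese mouse 22 and 60.8 ± 8.12% in Control, and Jup, plakoglobin, 9 of 33, averaging 12.5 ± 3.83% in MCR, 28.2 ± 16.7% in LFCR, 40.4 ± 10.2% in ICR, 32.8 ± 17.5% in LFD, 44.0% in Obese mouse 22 and 56.8 ± 9.56% in Control. This list was drawn up with earlier losses in these data in view, so its share is no independent evidence.

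The Hox cluster genes had the highest share of CpGs among the 10 lists, 130 of 351 (37.0%), beside 8.07% over all candidates. By gene, 6 of 21 with a candidate CpG had a member (28.6%), beside 21.5% over all genes. Hoxa3 had 83 of 187, Hoxb3 46 of 97, Hoxa5 36 of 57 and Hoxa4 10 of 19, and CpGs annotated to several of these genes count for each. The Hox members thus lay mostly at Hoxa3 and Hoxb3, and CpGs on the same fragment are not independent. The Hoxb3 members averaged 20.5 ± 2.53% in MCR, 34.2 ± 12.8% in LFCR, 45.3 ± 9.68% in ICR, 41.5 ± 11.7% in LFD, 57.9% in Obese mouse 22 and 61.3 ± 7.78% in Control. Over all 945 measured Hox CpGs, many of them low in every mouse, the mean per mouse was 20.6 to 22.9% in MCR, 21.1 to 28.7% in LFCR, 25.1 to 29.9% in ICR, 22.3 to 28.8% in LFD, 30.1% in Obese mouse 22 and 29.2 to 33.8% in Control mice.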

How the data were processed

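DNA of contralateral mammary fat pads from 25 mice was digested by MspI, size-selected at 40 to 170 bp and bisulfite sequenced, per the labels' protocols. Reads were processed with Bismark on mm10, per the submitters' processing notes; versions and filters are not given in the sources used here. The authors deposited methylation levels for every library as fractions, printed here in percent. The deposited coverage signal is an average over 21 libraries, so the depth per library is unknown and no binomial intervals are given. The authors' deposited annotation gave features, island relation and genes.

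Members followed the rule in the report. The members and the gene lists were chosen with earlier results of these data known. A count model could not be used on fractions, so limma 3.58.1 (R 4.3.3) was fitted with 1 term per group on the 21 libraries, with variance moderated over 118409 CpGs that had a value in 3 or more mice of LFCR, ICR and LFD, two-sided, with Benjamini-Hochberg adjustment over all of them; calls are at adjusted p below 0.05. The fit was tested on simulated data, with noise drawn separately at each CpG and changes placed in LFCR. In LFCR against LFD it called 28% of changes of 20 points, 60% of 30, 82% of 40 and 96% of 50, with 7 false calls. Changes under 20 points were not simulated. Changed CpGs were drawn only from those with an overall mean above 50%, and every group had the same spread at a CpG. Members averaged 38.2% in LFCR and 44.8% in LFD mice. Their median SD over the 12 LFCR, ICR and LFD mice was 13.7 points, against 7.28 at the rest. Shifts of a whole mouse shared by many CpGs were not simulated. These shares thus do not give the power at the members. The labels do not say that mice are independent of litter or cage, so p-values measure the spread between these mice.

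Named were the 12 clusters with most members, the 10 CpGs of lowest difference, the 3 CpGs on each side of the threshold, the 5 members of smallest p per comparison, the 5 lowest and 5 highest clusters over LFCR, ICR and LFD mice, and the genes with most members per list, of which the text gives a part; Gfi1, Tfr2, Hdac5 and other genes with many members, and the upstream windows, were picked after their values were seen. Sequences are from RefSeq (GRCm38.p6, the mm10 assembly); RefSeq also named clusters without a gene. Figures were drawn with matplotlib 3.10.9.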

Additional observations from a re-analysis of the deposited data

Results flagged for a closer look

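Among the named clusters and the means over all members, 3 of 69 groups of 4 or 5 mice held a mouse far from the others of its diet. Chance alone gives about 1 in 20 where groups are independent, but the same mice enter every cluster here. LFCR mouse 67 had 49.0% at the Nfatc2 cluster, with the other LFCR mice at 71.5, 73.5 and 71.6%. ICR mouse 103 had 27.1% at the Mex3a cluster, with the other ICR mice at 42.9, 43.5, 43.9 and 47.2%. Control mouse 1 had 71.8% at the BC034090 and Gm37622 cluster, with the other Control mice at 89.5, 84.9, 87.4 and 84.5%.

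Outside the libraries compared, 4 had intermediate levels at the 15676 CpGs that were under 5% in Control. Obese mouse 27 had a mean of 49.9%, Obese mouse 28 of 50.3%, Obese mouse 40 of 50.2% and LFD mouse 46 of 50.7%, against 1.10% to 1.32% in Control mice. At the members with a value, these libraries had means of 69.9, 70.2, 44.4 and 65.6% in the same order.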

How the results depend on the processing

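The share of members in islands was between 15.1% and 18.9% over all settings. The number of members was 10739 at a difference of -30 points or less and 3791 at -40 points or less, by construction, and 5474 to 8423 when each MCR or Control mouse was left out of the choice. Mean member levels ranged from 32.3% to 42.9% in LFCR, from 47.4% to 52.0% in ICR and from 39.3% to 51.6% in LFD when each mouse was left out. The count of members called in LFCR against LFD, LFCR against ICR and ICR against LFD was 0 without any one LFCR, ICR or LFD mouse. It was also 0 at an average coverage of 20 reads and on an arcsine square root scale. All 25 libraries, or a value in 2 or more mice per diet, gave 0 as well. An average coverage of 5 reads left the fit unchanged, with the same 6580 members tested, so it checked nothing. Both thresholds, and choices without an MCR or Control mouse, only regrouped the members of the main fit. That fit called 0% of all CpGs, so the counts of 0 there were fixed in advance. Over all CpGs, LFCR against LFD called 2 without LFD mouse 48, and LFCR against ICR called 1 without LFCR mouse 72. With LFD mouse 46 included, 12% of members and 7.29% of all CpGs had an unadjusted p under 0.05 in LFCR against LFD, against 3.19% and 5.3% without it. In ICR against LFD the same setting gave 1.11% and 4.03%, a median of 1.46 points at members in place of 4.85, and an LFD mean of 49.97% at members, above the ICR mean of 49.4%. No paired analysis was possible because the groups share no mouse numbers. Depth per library is unknown, so counting error at single CpGs could not be separated from differences between mice.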
